A study of Mus musculus with 2 samples.

Results

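The axon guidance ligands and receptors of the developing mouse cortex were taken as the genes whose symbols belong to the semaphorin (classes Sema3 to Sema7), plexin, neuropilin, Eph receptor, ephrin, Slit, Robo, netrin, netrin-G, Unc5 and Dcc families. In GENCODE M21, 71 protein-coding genes carry such a symbol, and 68 of them had at least 1 read, out of 18510 annotated genes with reads. The 3 without a read were Epha1, Ntn5 and Sema3g. The tissue was left cerebral cortex, taken at 14 days of age from females of the hybrid strain B6CASTF1/J, a cross of C57BL/6J and CAST/EiJ, with no treatment named in the labels. Total RNA, 2 µg per library and with synthetic spike-in RNAs added, was read as long reads in 2 libraries of 1 group, labelled as biological replicates 1 and 2. The label of replicate 1 may mean that 3 females were pooled, that of replicate 2 names a single female, and nothing further says that the RNA came from separate animals. The data therefore describe levels and isoforms in this tissue and how far these libraries differed.

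Axon guidance proteins steer growing axons by attraction and repulsion, and after axons have arrived they continue to act at synapses, on vessels and on glia. Semaphorins signal through plexins, with neuropilins as co-receptors for the secreted class 3, and Slits signal through Robo receptors. Ephrins are membrane-bound and signal through Eph receptor tyrosine kinases on the neighbouring cell, and netrins signal through Dcc and the Unc5 proteins.

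Replicate 1 held 1072344 mouse reads and replicate 2 held 753520. Levels are given as RPM, the reads of a gene scaled to 1000000 mouse reads. A long read stands for 1 molecule, so RPM was not divided by transcript length. Each read counted for 0.933 RPM (replicate 1) or 1.33 RPM (replicate 2). Where a gene had no read, its level could still be up to 2.80 or 3.98 RPM, the value of 3 counts. Intervals and these limits cover counting error only. Defining markers of cortical excitatory neurons were present in both libraries (6 of 6 genes, summed 4541 and 4186 RPM), as were those of astrocytes (6 of 6, 3040 and 3204 RPM). Markers of myelinating oligodendrocytes were lower in replicate 2 for 9 of 10 genes (summed 6213 and 3650 RPM). Markers of choroid plexus and meninges summed to 105 and 361 RPM, with Ttr alone at 25.2 and 256 RPM, 2 of 7 genes lower in replicate 2 and Kl at 0 in both. Markers of striatal neurons were lower in replicate 2 in 5 of 6 genes (569 and 388 RPM). In bulk tissue such as this, fewer cells of a type and less RNA per cell cannot be told apart.

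The guidance genes were detected broadly, most of them at a low level. Of the 68 genes, 64 were read in both libraries, 18 had 50 or more reads in total, 36 had 10 to 49 and 14 had fewer than 10. Together they took 1856 reads in replicate 1 and 1216 in replicate 2, which was 1731 and 1614 RPM (mean 1672 ± 82.8, SD, n = 2). The 33 receptor genes summed to 852 ± 73.8 RPM and the 35 ligand genes to 820 ± 8.99. Receptors exceeded ligands by a ratio of 1.09 in replicate 1 and fell under them, at 0.984, in replicate 2. The 54 genes with 10 or more reads had a median of 15.96 RPM, against 30.9 RPM over all 11339 genes that passed the same minimum. Semaphorins (552 ± 44.9 RPM, 19 genes) and Eph receptors (504 ± 62.1, 13 genes) held most of the sum, followed by ephrins (198 ± 33.4, 8 genes) and plexins (178 ± 3.66, 9 genes).

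**Figure D1:**
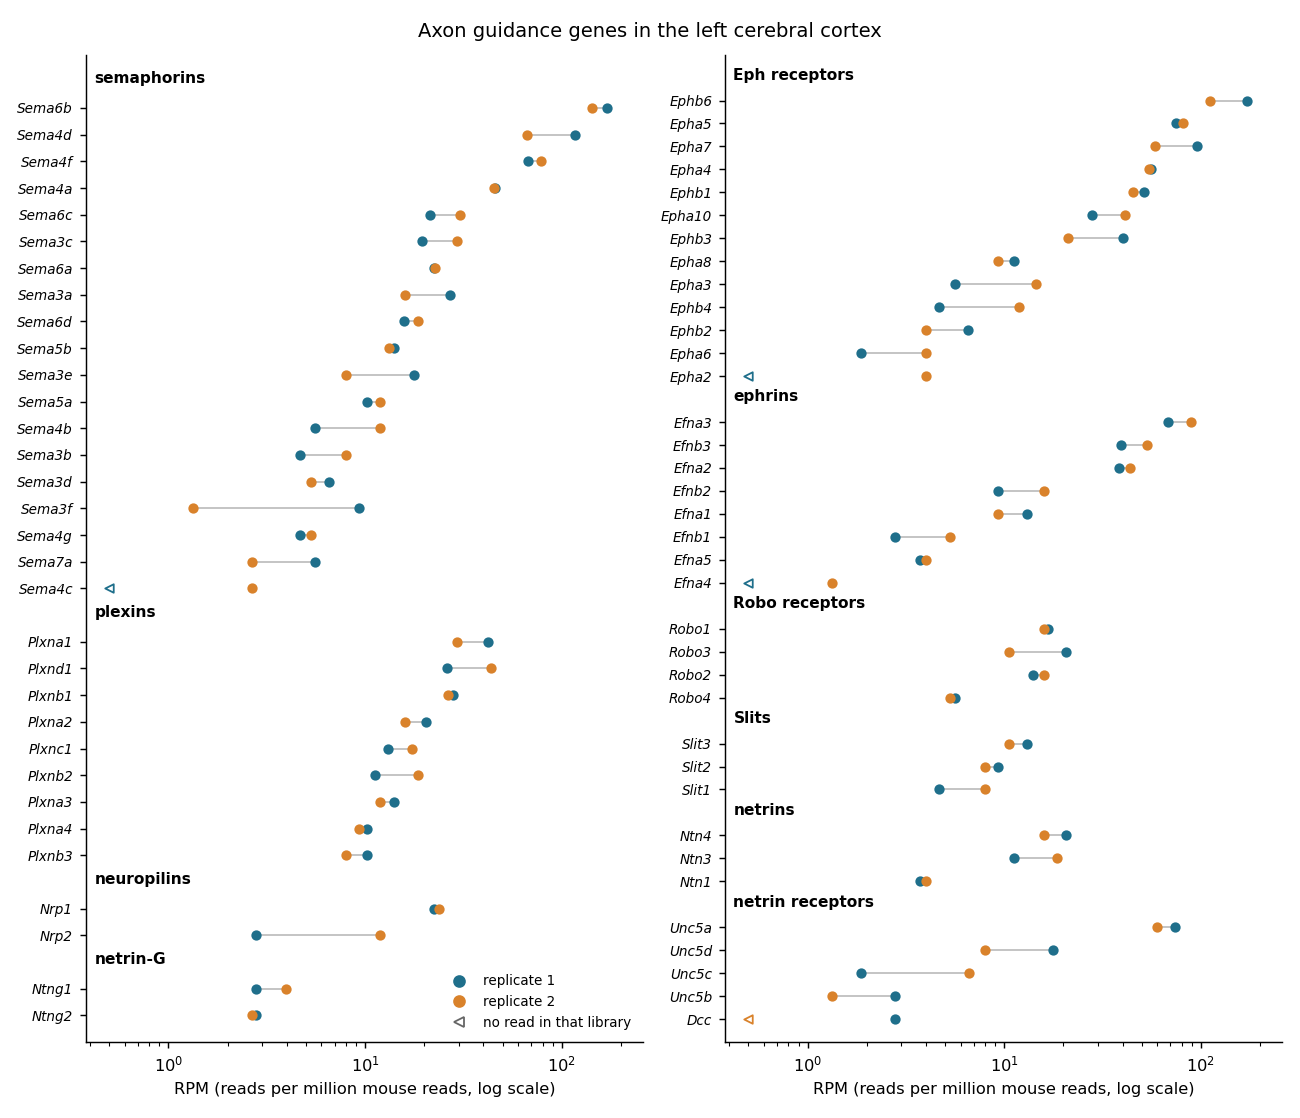
Level of each of the 68 guidance genes in RPM (log axis), by family, with 1 point per library and an open triangle where a library had no read. The points run from a single read to 173 RPM for Ephb6 in replicate 1, and the grey lines between libraries are long mainly for genes with few reads, such as Sema3f with 10 and 1 reads.

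Semaphorins were led by transmembrane members of classes 6 and 4. Sema6b, a transmembrane semaphorin that binds plexin A receptors, had 182 and 108 reads in replicates 1 and 2 (169.7 and 143 RPM), the highest mean of all the guidance genes (157 ± 18.7 RPM). Sema4d, a ligand of plexin B1 that is made by oligodendrocytes as well as neurons, had 125 and 50 reads (117 and 66.4 RPM). Sema4f had 72 and 59 reads (67.1 and 78.3 RPM). Both Sema4d and Sema4f are membrane-spanning class 4 proteins, and the order of their levels changed between the libraries. Sema4a had 49 and 34 reads (45.7 and 45.1 RPM), nearly the same level in each library. The secreted class 3 semaphorins, the classical repellents, were lower. Sema3c had the highest mean of them with 21 and 22 reads (24.4 ± 6.80 RPM). It was exceeded in replicate 1 by Sema3a, the ligand of neuropilin 1 and plexin A receptors that collapses growth cones, with 29 and 12 reads (21.5 ± 7.86 RPM). The 6 class 3 genes together summed to 76.3 ± 12.1 RPM, against 225 ± 21.2 for the 6 class 4 genes and 222 ± 10.2 for the 4 class 6 genes. Another 10 semaphorins lay between 5.33 ± 5.66 RPM (Sema3f) and 25.99 ± 6.42 RPM (Sema6c). At the low end stood Sema7a, the semaphorin held by a lipid anchor (6 and 2 reads), Sema4g (5 and 4) and Sema4c (0 and 2).

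All 9 plexins, the main semaphorin receptors, had 10 or more reads, and none stood far above the rest. Plxna1, a receptor for class 3 and class 6 semaphorins, had 45 and 22 reads (41.96 and 29.2 RPM). Of these, 29 and 18 were of the class Genomic, single-exon reads in its last exon, and without that class its mean level was 10.7 ± 7.20 RPM in place of 35.6 ± 9.03. Plxnd1, the Sema3e receptor of vessels and of some neurons, had 28 and 33 reads (26.1 and 43.8 RPM). Plxna1 and Plxnd1 changed order between the libraries, whereas Plxnb1, the Sema4d receptor, was level with 30 and 20 reads (28.0 and 26.5 RPM). The other 6 plexins lay between 9.11 ± 1.62 RPM (Plxnb3) and 18.2 ± 3.25 RPM (Plxna2). Of the co-receptors, Nrp1 had 24 and 18 reads (23.1 ± 1.07 RPM) and Nrp2 had 3 and 9 (7.37 ± 6.47 RPM).

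Among the Eph receptors, the most abundant was one without kinase activity. Ephb6, whose kinase domain is catalytically inactive, had 185 and 84 reads (173 and 111 RPM). Epha5 had 80 and 61 reads (74.6 and 81.0 RPM). Epha7, which is expressed in cortical neurons and shapes dendrites and cortical maps, had 103 and 44 reads (96.1 and 58.4 RPM). Ephb6 was thus the highest Eph receptor in each library, while Epha5 and Epha7 exchanged places. Epha4, a receptor that binds both classes of ephrin, had 60 and 41 reads (56.0 and 54.4 RPM). Ephb1 had 55 and 34 reads (51.3 and 45.1 RPM). Each of these kept nearly the same level, which was not so for the next pair. Epha10, a further receptor with an inactive kinase domain, had 30 and 31 reads (28.0 and 41.1 RPM). Ephb3 had 43 and 16 reads (40.1 and 21.2 RPM). The other 6 ranged from 10.2 ± 1.34 RPM for Epha8 down to Epha2, with 0 and 3 reads. The 8 A-type receptors summed to 273 and 267 RPM and the 5 B-type receptors to 275 and 194 RPM.

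Their ligands, the ephrins, were led by the A-type Efna3. Efna3, which is anchored by lipid, had 73 and 67 reads (68.1 and 88.9 RPM). Efnb3, a transmembrane ephrin that acts as a midline barrier to corticospinal axons, had 42 and 40 reads (39.2 and 53.1 RPM). Efna2 had 41 and 33 reads (38.2 and 43.8 RPM). All of these were higher in RPM in replicate 2, each by a log2 ratio whose exact 95% interval included 0. Efnb2 (10 and 12 reads) and Efna1 (14 and 7) followed, and Efna5 (4 and 3), Efnb1 (3 and 4) and Efna4 (0 and 1) had fewer than 10 reads. B-type ephrins summed to 62.8 ± 16.3 RPM and A-type ephrins to 135 ± 17.1 RPM.

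The midline systems were scarce, apart from Unc5a. Unc5a, a netrin receptor that mediates repulsion, had 79 and 45 reads (73.7 and 59.7 RPM) and thereby held most of the netrin receptor sum of 87.2 ± 16.4 RPM. Unc5d had 19 and 6 reads, Unc5c 2 and 5, and Unc5b 3 and 1. Dcc, the attractive netrin receptor, had 3 and 0 reads, so its level in both was at or under the limit that a count of 0 allows. The netrin ligands summed to 37.0 ± 2.16 RPM and consisted mostly of Ntn4, a basement membrane netrin (22 and 12 reads), and Ntn3 (12 and 14), with Ntn1, the classical midline cue, at 4 and 3 reads. The 3 Slits, large secreted repellents, summed to 26.8 ± 0.355 RPM (Slit3 14 and 8 reads, Slit2 10 and 6, Slit1 5 and 6). Their receptors summed to 52.3 ± 6.44 RPM, with Robo1, Robo2 and Robo3 between 14.96 ± 1.37 and 16.4 ± 0.608 RPM and the vascular Robo4 at 5.45 ± 0.203. The membrane-anchored netrin-G genes Ntng1 (3 and 3 reads) and Ntng2 (3 and 2) were close to the detection limit.

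The libraries were compared gene by gene with an exact binomial test (two-sided) that takes the library totals as given, adjusted by the Benjamini-Hochberg method over all 11339 genes with 10 or more reads. The p-values compare these 2 libraries and not conditions. None of the 54 guidance genes tested passed an adjusted p of 0.05 (0 of 54, where the background over all genes was 0.882%). At an unadjusted p under 0.05 there were 6 of 54, against 8.6% of all genes. Of these, 5 were lower in replicate 2, against 4.59% of all genes, and 1 was higher. Scaled to the ERCC spike-ins instead, which moved the median of all genes by 0.25 on the log2 scale, the unadjusted count was 2 lower and 6 higher. The unadjusted count over all genes was not made at this scaling. Still 0 guidance genes were called, against 323 of all 11339 genes, 19 of them lower and 304 higher in replicate 2. The median log2 ratio of replicate 2 over replicate 1 was -0.04 for the 54 genes and -0.003 for all.

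The smallest adjusted p-values belonged to the more abundant genes that were lower in replicate 2. Sema4d had a log2 ratio of -0.80 (exact 95% interval -1.32 to -0.33, adjusted p = 0.0669 by the exact binomial test). Ephb6 had a log2 ratio of -0.63 (-1.02 to -0.25, exact binomial adjusted p = 0.0767), and Epha7 one of -0.71 (-1.26 to -0.20, exact binomial adjusted p = 0.224). Sema4d and Ephb6 lay close to the threshold and crossed it under some settings but moved away from it under others. With reads of the class Genomic left out, the exact binomial adjusted p was 0.0249 for Sema4d and 0.0325 for Ephb6, and with TMM-scaled library sizes it was 0.0403 and 0.0492. With only genes of 50 or more reads tested, Sema4d alone passed (exact binomial adjusted p = 0.0449). With ERCC totals as library sizes the log2 ratios were -0.56 for Sema4d and -0.38 for Ephb6 (exact binomial adjusted p = 0.207 and 0.308). Without the filter on low counts the exact binomial adjusted p was 0.108 and 0.124. On annotated transcripts only it was 0.136 for Ephb6. Sema4d is known from oligodendrocytes, and the summed myelin markers had a log2 ratio of -0.77 between the same libraries; their part in the Sema4d difference was not tested. The remaining genes at an unadjusted p under 0.05 were Ephb3, Sema3f and, as the only one higher in replicate 2, Nrp2.

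**Figure D2:**
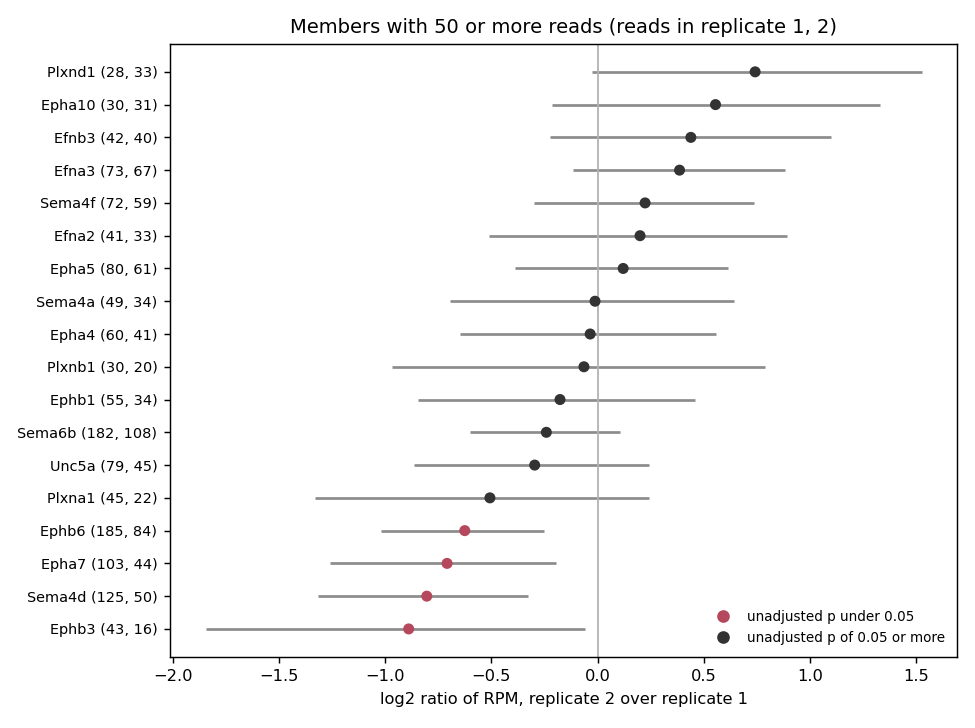
Log2 ratio of RPM, replicate 2 over replicate 1, for the 18 guidance genes with 50 or more reads, with exact 95% intervals (bars) and the reads of each library beside the names. Red points mark the 4 genes at an unadjusted p under 0.05, all of them to the left of 0, from Ephb6 at -0.63 to Ephb3 at -0.89.

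Downstream of the receptors, 69 genes of the shared signalling machinery were listed, of which 68 had reads (Draxin had none) and 61 had 10 or more. They were more abundant than the ligands and receptors, with a median of 42.2 RPM. The most abundant was Chn1, the Rac-inactivating alpha-chimaerin that acts below Epha4, at 1483 and 1282 RPM. Also abundant were Cfl1, the actin-severing cofilin (1281 ± 0.200 RPM), Ppp3r1, the calcineurin regulatory subunit (542 ± 49.04), and Crmp1, a semaphorin-response protein of microtubules (526 ± 47.8). Of the 61 tested, 2 were called, with the background at 0.882%. Chn1 was lower in replicate 2, with 1590 and 966 reads (log2 ratio -0.21, exact binomial adjusted p = 0.0418), and Dpysl3, a relative of Crmp1, was higher, with 42 and 60 reads (log2 ratio 1.02, exact binomial adjusted p = 0.0451).

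Guidance genes were covered less completely than other genes. The authors' models place each read in a class: an annotated transcript, an incomplete splice match (part of an annotated intron chain), annotated splice sites in another combination, a splice site outside the annotation, or Genomic. Of the guidance reads, 44.5% (replicate 1, Wilson 95% interval 42.2 to 46.7) and 41.8% (replicate 2, 39.0 to 44.6) fell on an annotated transcript, against 72.7% and 71.2% over all annotated genes. Incomplete matches took 28.9% and 30.4%, against 10.6% and 11.6%. Most of these incomplete reads, 73.9% and 75.4%, matched the 3′ end of the annotated chain, as did 70.7% and 68.1% over all genes.

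The shortfall went along with transcript length. The longest coding transcript had a median of 5359.5 bases over the 54 genes with 10 or more reads, against 3188 over all genes with 10 or more reads. In the 20 genes whose longest coding transcript was under 4000 bases, 60.9% and 58.6% of reads were on annotated transcripts. In the 23 genes of 4000 to under 6000 bases the share was 37.8% and 37.1%, and in the 25 of 6000 bases or more it was 29.5% and 24.9%. The order held in each library. The share is also low where a gene's leading chain is outside the annotation. Sema4d, in the class of 4000 to under 6000 bases, had such a chain, with 5 of 125 and 1 of 50 reads on annotated transcripts. The part of such chains in these shares was not tested. Counted on annotated transcripts only and scaled to 1000000 such reads, the guidance genes summed to 1101 ± 63.9 RPM, 29 of them had 10 or more reads, and the ratio of receptors to ligands was 0.683. Sema4d then stood at 4.51 ± 3.44 RPM and Plxnb1 at 0, while Efna2 stood at 55.9 ± 6.27. By family, ephrins, whose transcripts are short, had 73.8% and 70.1% of reads on annotated transcripts, plexins 11.7% and 14.7%, and Robo receptors 1 of 61 and 1 of 36 reads.

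Among spliced reads of the guidance genes, 68.6% and 67.4% lay on models that reached the start codon of the longest annotated coding region, against 87.9% and 87.5% over all coding genes. Ephrins reached it in 93.8% and 92.6%, semaphorins in 75.6% and 78.8% and Eph receptors in 74.4% and 65.8%. Plexins did so in 21.2% and 26.3%, and none of the 38 spliced Plxnb1 reads did (0 of 23 and 0 of 15). Robo receptors did so in 7 of 56 and 2 of 34 reads. Single-exon reads made up 14.8% and 16.8% of guidance reads, against 11.1% and 11.9% over all annotated genes, and 93.1% and 85.8% of those lay in a last exon.

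**Figure D3:**
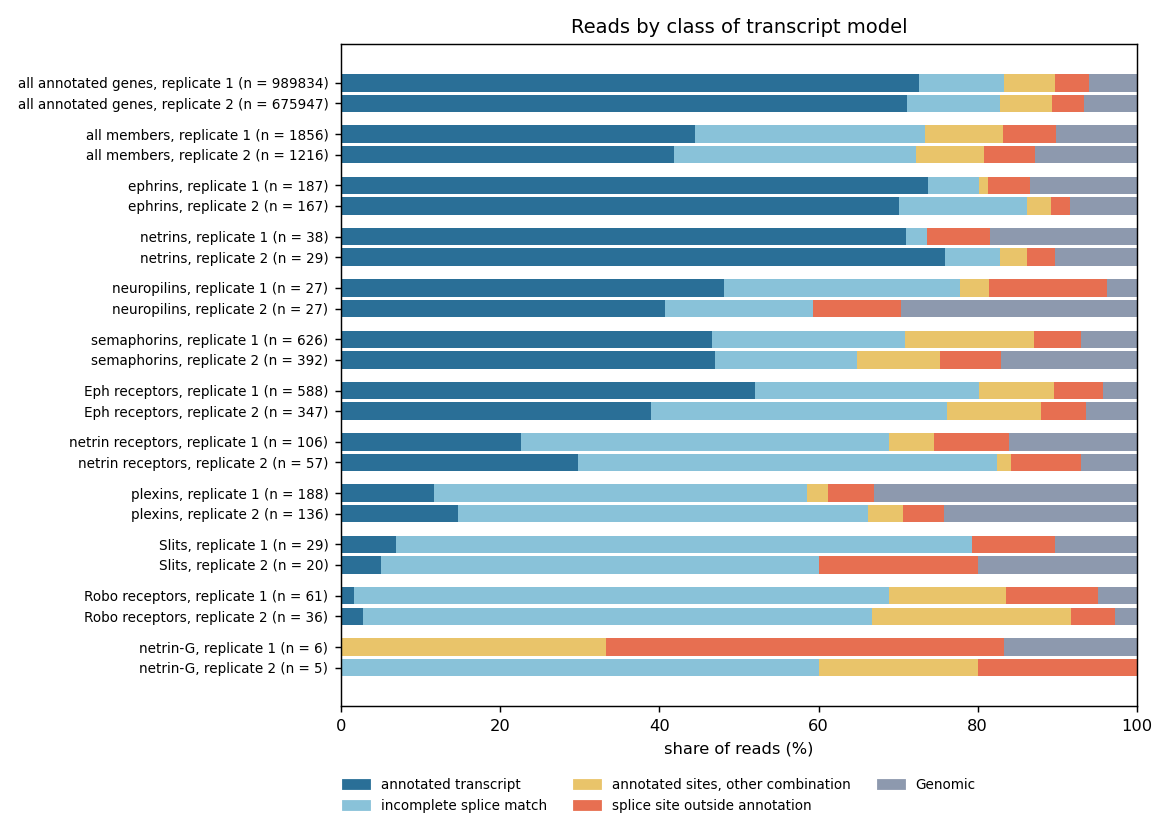
Share of reads in each class of transcript model (x axis, %), for all annotated genes, for all 68 guidance genes and for each family, with 1 bar per library and its number of reads. Annotated transcripts fill 70.1 to 73.8% of ephrin reads but 11.7 to 14.7% of plexin reads, where incomplete matches and Genomic reads take most of the rest.

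Isoforms were compared where the coverage allowed. The guidance genes had 718 distinct intron chains, with each incomplete match counted as a chain of its own. Of these, 176 were found in both libraries and 473 (65.9%) rested on a single read. The same count was not made over all genes, so these numbers do not set the guidance genes apart. In 11 genes with 20 or more reads on full chains in each library, the share of the leading chain was tested by two-sided Fisher's exact test over all 4979 such genes. None of the 11 was called, with a background of 0.0603%. At an unadjusted p under 0.05 there were 0 of 11, against 236 of all 4979 genes. Annotated alternative exons that 10 or more reads spanned in each library numbered 38 in 13 guidance genes. None was called different in inclusion (Fisher's exact test, 0 of 38, background 0% of 10800 exons). At an unadjusted p under 0.05 there were 0 of 38, against 133 of all 10800 exons. The shares of last exons, first exons, exon combinations and close splice sites given below were not tested between the libraries.

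In Epha7 (mm10 chr4:28813131-28967499, plus strand) the short form without a kinase domain had the most reads. Epha7-202, with 10 exons and 1830 coding bases, is known as a truncated receptor that can block repulsion by the full-length protein. Its last exon ended 72 of 101 spliced Epha7 reads (replicate 1, 71.3%, Wilson 95% interval 61.8 to 79.2) and 25 of 44 (replicate 2, 56.8%, 42.2 to 70.3). The last exon of the long forms Epha7-201 and Epha7-203, each with 17 exons, ended 25 of 101 and 19 of 44. The leading chain was accordingly Epha7-202 in both libraries, with 60 of 93 and 22 of 42 full-chain reads. Epha7-202 has 2880 bases, against 6746 for Epha7-201 and 6615 for Epha7-203. Longer transcripts were covered less completely here, and the part of length in these shares was not tested. The 3 sequences are shown because they diverge after a shared exon. Lower case gives that exon's last bases and, for the long forms, the bases that both share. Capitals mark the coding end of the short form up to and including its stop codon (chr4:28946219-28946253) and the 12 bases that Epha7-201 has and Epha7-203 lacks (chr4:28947528-28947539).
Epha7-202: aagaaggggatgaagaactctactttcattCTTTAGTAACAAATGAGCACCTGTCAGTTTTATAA
Epha7-201: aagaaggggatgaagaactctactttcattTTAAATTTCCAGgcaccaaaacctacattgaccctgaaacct
Epha7-203: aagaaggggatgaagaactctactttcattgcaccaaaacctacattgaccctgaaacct
Among long-form reads the acceptor that drops these 12 bases was used in 7 of 25 in replicate 1 and 5 of 18 in replicate 2 (28.0% and 27.8%). A donor that shortens an upstream exon by 15 bases was rarer, at 7 of 98 and 3 of 42 reads (7.14% in both). Both changes have a length that is a multiple of 3.

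Epha5 (chr5:84054761-84417382, minus strand) was divided among many forms. Its leading full chain, Epha5-202, held 9 of 41 and 7 of 25 full-chain reads (21.95% and 28.0%). A chain of 15 exons that the authors class as an incomplete match had more reads, 20 and 12. Epha5 reads differed in 3 optional exons. Exon 4 of Epha5-203, of 156 bases, was included in 32 of 63 and 26 of 44 reads (50.8% and 59.1%). Exon 5, of 336 bases, was included in 18 of 63 and 13 of 43 (28.6% and 30.2%). Read together, which long reads permit, the combinations between exons 3 and 6 were neither exon (31 of 63 and 18 of 43), exon 4 alone (14 and 12) and both (18 and 13). Exon 5 without exon 4 was not seen in these reads. Exon 7 of Epha5-201, of 66 bases, was included in 50 of 64 and 34 of 43 reads (78.1% and 79.1%). The last exon shared by Epha5-202, Epha5-203 and Epha5-204 ended 71 of 77 and 51 of 58 spliced reads, and that of Epha5-201 ended 5 and 2. The optional exons 4 (chr5:84237399-84237554) and 7 (chr5:84117561-84117626) are shown in capitals as examples of the optional exons, with 15 bases of the neighbouring exons in lower case. Each has a length that is a multiple of 3.
Epha5 exon 4: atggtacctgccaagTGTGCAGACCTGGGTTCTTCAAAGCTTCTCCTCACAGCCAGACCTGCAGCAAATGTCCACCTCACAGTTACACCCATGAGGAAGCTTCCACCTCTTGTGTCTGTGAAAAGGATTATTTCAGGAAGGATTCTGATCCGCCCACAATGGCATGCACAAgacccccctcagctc
Epha5 exon 7: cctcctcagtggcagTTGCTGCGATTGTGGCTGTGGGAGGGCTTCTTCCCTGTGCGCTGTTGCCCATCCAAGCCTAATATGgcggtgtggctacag

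In Sema4d (chr13:51685529-51793747, minus strand) most reads ended in an exon that the annotation assigns to a fragment alone. The transcripts that encode the known protein, Sema4d-201, Sema4d-202 and Sema4d-203 (2583 coding bases), end in an exon that carries 920 of those bases. There ended 22 of 117 and 8 of 44 spliced reads (18.8% and 18.2%). The last exon of Sema4d-204, a transcript annotated with 5 exons, ended 95 of 117 and 36 of 44 (81.2%, Wilson 95% interval 73.2 to 87.2, and 81.8%, 68.0 to 90.5). The leading chain was outside the annotation, with 18 exons, all of its introns annotated, and 17 of 73 and 5 of 29 full-chain reads. Sema4d was the only gene of the 11 with an unannotated leading chain, where the background was 5.94% of 4979 genes. The 2 annotated routes leave the same exon, whose end is in lower case. Capitals mark the first 45 bases of the exon that follows in Sema4d-201 (chr13:51703487-51703531) and in Sema4d-204 (chr13:51700996-51701040). Some chains with the Sema4d-204 end used an unannotated intron that starts inside the last exon of Sema4d-201 and leads to that Sema4d-204 exon. Such chains had, among others, 7 and 2, 5 and 2, 6 and 0, 3 and 2, and 1 and 2 reads. The Sema4d-204 end therefore does not mean that the Sema4d-201 exon was skipped.
Sema4d-201: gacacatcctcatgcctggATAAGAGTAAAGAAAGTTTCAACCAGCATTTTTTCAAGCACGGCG
Sema4d-204: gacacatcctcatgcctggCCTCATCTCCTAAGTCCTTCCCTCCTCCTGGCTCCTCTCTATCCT

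**Figure D4:**
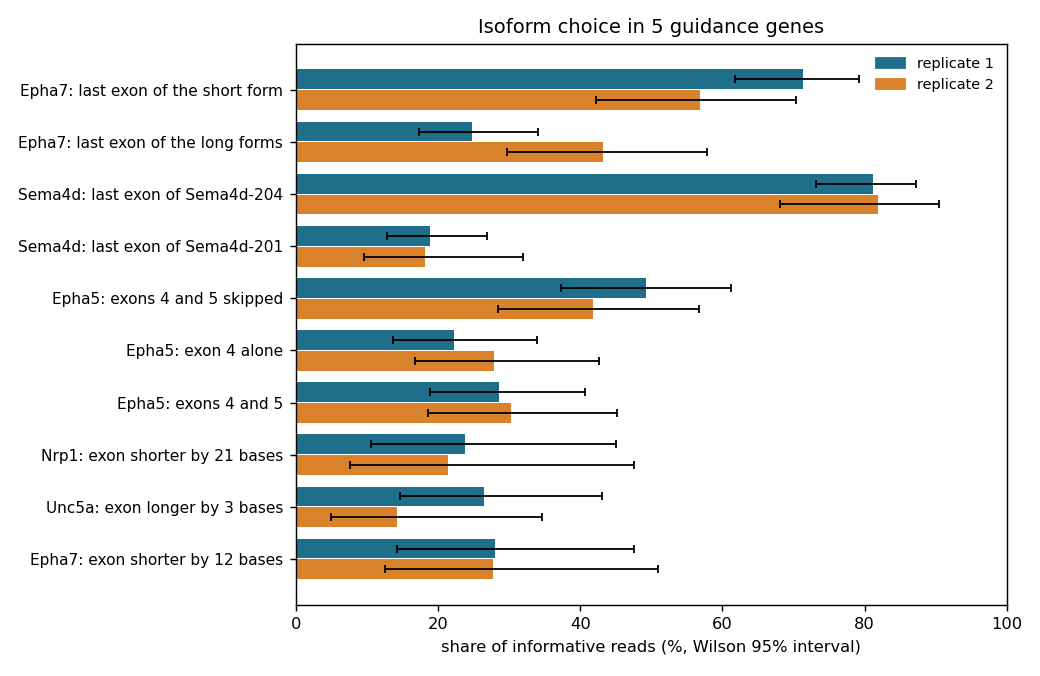
Share of informative reads (x axis, %, bars with Wilson 95% intervals) that used each alternative end, exon combination or close splice site in 5 guidance genes, by library. The short Epha7 end stands at 71.3 and 56.8% and the Sema4d-204 end at 81.2 and 81.8%, and the intervals of the libraries overlap for every choice.

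Sema4a was the third gene whose leading chain held under 50% of full-chain reads, against a background of 13.7% of 4979 genes for such genes. Sema4a-213 had 19 of 40 and 11 of 30 reads (47.5% and 36.7%). Its transcripts differed mainly at the start, where the most used first exon took 20 of 40 and 14 of 30 reads and the next 8 of 40 and 10 of 30. At the other extreme, Efna2-201 held 37 of 39 and 29 of 30 full-chain reads, Sema6b-201 120 of 131 and 67 of 78, and Ephb1-201 36 of 41 and 19 of 22.

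Across the 38 alternative exons, 17 were included in more than 95% of reads on average, 5 in less than 5%, and 16 exons in 9 genes lay between. Of those 16, 12 had a length that is a multiple of 3. Exons included in most reads were exon 4 of Efna3 (78 bases, 62 of 67 and 52 of 59 reads, 92.5% and 88.1%) and exon 4 of Sema4f (99 bases, 51 of 59 and 40 of 42, 86.4% and 95.2%). Unc5a showed the opposite pattern. Its exon 6, of 168 bases, which encodes one of the extracellular thrombospondin type 1 repeats of the receptor, was included in 3 of 35 and 2 of 24 reads (8.57% and 8.33%). The leading Unc5a chain was accordingly Unc5a-202, which lacks it, with 22 of 35 and 15 of 21 full-chain reads. The exons of Efna3 (chr3:89315808-89315885, minus strand), Sema4f (chr6:82935587-82935685, minus strand) and Unc5a (chr13:54997193-54997360, plus strand) are shown in capitals, as the frequent and the rare optional exon, with 15 bases of the neighbouring exons in lower case.
Efna3 exon 4: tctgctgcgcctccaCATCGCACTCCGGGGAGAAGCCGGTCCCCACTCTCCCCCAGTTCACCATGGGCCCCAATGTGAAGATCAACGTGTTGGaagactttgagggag
Sema4f exon 4: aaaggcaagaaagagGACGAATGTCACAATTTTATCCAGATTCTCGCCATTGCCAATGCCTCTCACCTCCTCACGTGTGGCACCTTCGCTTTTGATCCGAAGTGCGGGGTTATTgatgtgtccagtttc
Unc5a exon 6: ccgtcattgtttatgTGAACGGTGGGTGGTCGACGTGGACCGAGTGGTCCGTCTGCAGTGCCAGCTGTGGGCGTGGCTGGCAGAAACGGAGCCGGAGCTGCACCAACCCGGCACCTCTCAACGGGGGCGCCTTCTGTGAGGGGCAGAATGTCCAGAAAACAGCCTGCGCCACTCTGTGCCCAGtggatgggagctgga

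The remaining intermediate exons rested on fewer reads. In Sema6a, a transmembrane semaphorin, the 165-base exon was included in 14 of 22 and 7 of 11 reads and a 51-base exon in 12 of 22 and 3 of 11. In Sema6c the coding exon 6 of 64 bases was included in 15 of 16 and 8 of 12 reads and exon 20 of 96 bases in 1 of 18 and 3 of 17. Its noncoding exons of 49 and 90 bases were in 9 of 15 and 8 of 11, and in 9 of 15 and 6 of 11. These counts left wide intervals, from 39.1 to 86.2% for exon 6 of Sema6c in replicate 2. In Robo2, the 273-base exon 26 was in 3 of 12 and 6 of 10 reads and the 183-base exon in 0 of 11 and 1 of 10. Noncoding exons of Sema4a (137 bases) and Sema4d (64 bases) were in 2 of 37 and 4 of 26, and in 6 of 59 and 3 of 22.

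**Figure D5:**
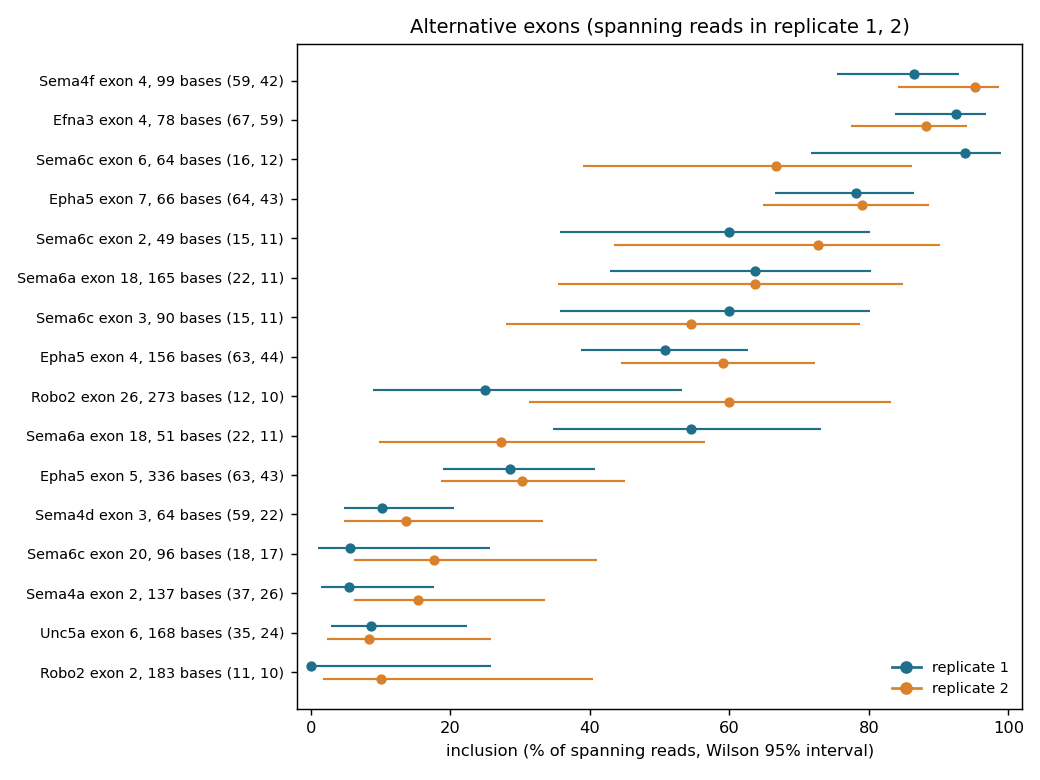
Inclusion (x axis, % of spanning reads, points with Wilson 95% intervals) of the 16 guidance gene exons with a mean inclusion of 5 to 95%, by library, with the spanning reads of each library beside the names. Intervals of the libraries overlap for every exon, and they are widest for exons with few spanning reads, such as exon 26 of Robo2 with 12 and 10.

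Small shifts of splice sites added further forms. Pairs of sites within 30 bases of each other, with at least 4 reads on the rarer site, were found at 10 places in 8 genes. In Nrp1 a donor outside the annotation shortened exon 11 by 21 bases in 5 of 21 and 3 of 14 reads (23.8% and 21.4%). In Unc5a an acceptor outside the annotation lengthened an exon by 3 bases in 9 of 34 and 3 of 21 reads (26.5% and 14.3%). Both lengths are multiples of 3, and both forms were seen in each library. The other close sites outside the annotation were acceptors that shortened an exon by a length that is not a multiple of 3. In Ephb6 these took 4 bases off in 6 of 135 and 1 of 47 reads, and elsewhere in 1 of 174 and 3 of 78. In Ntn3 such an acceptor took 2 bases off in 1 of 10 and 3 of 13 reads. In Epha4 an annotated donor lengthened an exon by 29 bases in 2 of 34 and 7 of 24 reads, and in Robo2 an annotated donor shortened an exon by 9 bases in 6 of 12 and 2 of 11. The Nrp1 bases are shown in capitals (chr8:128480969-128480989, plus strand), between 30 bases of the same exon and 30 of the next, because the shorter form is outside the annotation yet made up over 20% of reads in both libraries.
Nrp1 exon end: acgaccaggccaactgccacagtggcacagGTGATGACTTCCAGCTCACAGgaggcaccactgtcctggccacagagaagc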

How the data were processed

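Long-read RNA-seq was measured in 2 libraries of left cerebral cortex. The authors deposited raw read counts per transcript model, with exon coordinates and model lengths on mm10, made with the GENCODE M21 annotation per the file headers. The models' source field names TALON. The aligner is not given in the sources used here. Model names outside the annotation differ between the libraries, so chains were matched by intron positions, and a chain counted as full where either library classed it as annotated or as a full unannotated chain. Each read belongs to 1 gene in the deposited tables, so overlapping genes are uncertain.

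Counts were summed per gene and scaled to RPM. Log2 ratios used a pseudocount of 0.5 reads. Exact binomial tests covered all genes with 10 or more reads, and Fisher's exact tests covered all genes with 20 or more full-chain reads, or all annotated alternative exons that 10 or more reads spanned, in each library, with Benjamini-Hochberg adjustment and a threshold of 0.05. Both steps were run on simulated data that held counting error only, as the tests assume. That check cannot show how the tests handle further differences between libraries or animals. Wilson and exact 95% intervals are given. Python 3.11.15, SciPy 1.17.1, pandas 2.3.3 and, for TMM factors only, edgeR 4.0.16 were used. Sequences came from the GENCODE M21 transcripts, on mm10.

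The rule for names gave genes with 50 or more reads in full, leading chains outside the annotation or under 50%, exons of 5 to 95% inclusion, and the 5 most abundant and every called gene of the signalling list, of which 1 is not reported here. Genes with fewer reads, close splice sites and the leading chains of other genes were named after their values were seen. Members and lists were chosen with earlier results of these data known. The alternatives tried are given in the closing section.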

Additional observations from a re-analysis of the deposited data

Results flagged for a closer look

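Reads on the strand opposite to a guidance gene lie outside the gene counts above, and those assigned to no annotated gene were counted over its exons. In 5 genes they exceeded, in both libraries, the 3 reads that a count of 0 allows. Over exons of Efna5 there were 111 antisense reads in replicate 1 and 55 in replicate 2, against 4 and 3 sense reads. Of these, 106 and 54 belonged to a single-exon model on the plus strand from 62602961 (chr17, mm10), which overlaps the last exon of Efna5. Over exons of Plxna4 there were 14 and 4 antisense reads, over Unc5d 10 and 7, over Sema6a 5 and 4, and over Sema7a 4 and 6, nearly all on single-exon models.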

How the results depend on the processing

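No paired analysis was possible because the series holds 1 group. The tests between libraries gave no value with 1 library left out. The count of guidance genes called between the libraries was 0, where 100 of all 11339 genes were called. It became 2 without Genomic reads (176 of all 10604 genes), 2 with TMM-scaled library sizes (121 of 11339) and 1 with a minimum of 50 reads (93 of 6104). It was 0 on annotated transcripts only (35 of 8636), without the filter on low counts (85 of 18510) and with ERCC totals (323 of 11339). The class Genomic was not given alike in both libraries. Single-exon reads in the last exon of Sema6b were incomplete matches in replicate 1 (29) and Genomic in replicate 2 (16). Those of Efnb3 were Genomic in replicate 1 (14) and incomplete matches in replicate 2 (17). Leaving out Genomic reads thus removed such reads unevenly. The leading-chain and exon tests called 0 guidance genes under each alternative. Guidance genes with 10 or more reads numbered 54, 29 on annotated transcripts only, and 34 to 45 with a library left out. The summed level of 1672 RPM was 1575 without Genomic reads and 1101 on annotated transcripts only, each scaled to 1000000 reads of the kind kept, and 1614 to 1731 with a library left out. The ratio of receptors to ligands, with a mean of 1.04, was 0.683 on annotated transcripts only and 0.984 to 1.09 with a library left out, so which side was larger changed. The share of reads on annotated transcripts, 43.1%, was 48.7% without Genomic reads and 41.8 to 44.5% with a library left out. A gene was said to move when its mean level changed by at least its SD between the 2 libraries. Of the 18 genes with 50 or more reads, 12 moved on annotated transcripts only and 4 without Genomic reads. These counts depend on that SD. Sema4a (SD 0.405) moved from 45.4 to 46.8 RPM without Genomic reads. Ephb6 (SD 43.2) went from 142 to 115 RPM on annotated transcripts only and was not counted. With ERCC totals the median log2 ratio of the 54 genes went from -0.04 to 0.20. The log2 ratios of Sema4d, Ephb6 and Epha7 kept their sign under the alternatives run. The cause of these shifts was not tested. Depth limited the leading-chain test to 11 genes and the exon test to 13, and left 14 guidance genes under 10 reads.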
